A study of Mus musculus with 177 samples.

Results

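Immediate-early genes were examined in 3 tissues (lung, brain and eye) of mouse pups, 3 hours after a period of low oxygen had ended. The set has 34 genes, named as a group of textbook immediate-early genes, with earlier results of these data known. Each gene is represented by the probe sets annotated to it alone, the brightest on average within a tissue being taken where there were several. All 34 were measured, each by exactly 1 such probe set, out of 19937 genes tested in each tissue.

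Immediate-early genes are switched on within minutes of a stimulus without new protein synthesis, because the factors that bind their promoters (SRF with its Elk partners, and CREB) are already present and are activated by MAP kinases or calcium. Their transcripts are short-lived, so a rise usually passes unless the stimulus persists. Their products are transcription factors, such as Fos, Jun, Egr1 and Nr4a1, and brakes on the same signals, such as the Dusp phosphatases and the RNA decay factor Zfp36. In neurons Arc and Npas4 follow synaptic activity.

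All mice were C57BL/6 and 7 days old, and the design text gives 62 of them. Hypoxia mice breathed an oxygen fraction of 0.08 for 120 min and then 21, 40, 60 or 100% oxygen for 30 min (groups H21, H40, H60 and H100). Control mice breathed air, a fraction of 0.21, for 120 min and then 21 or 100% oxygen for 30 min (groups N21 and N100). All mice then spent 150 min in air before tissue was taken, so no array shows the tissue during low oxygen or in its first minutes. Each group and tissue holds 9 to 12 arrays, Affymetrix Mouse Gene 1.0 ST, taken as separate animals because the design text describes randomized mice.

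Of 177 arrays, 174 had the profile of their labelled tissue and were used: 60 of lung, 58 of brain and 56 of eye. The 3 others, all labelled H40, were left out. Across genes, which are not independent replicates, replicate 10 of the lung label resembled brain most (r = 0.986, and 0.811 for lung). Replicate 7 of the brain label resembled eye (0.957, and 0.873 for brain), and replicate 9 of the eye label resembled lung (0.954, and 0.880 for eye). In the arrays used, the mean of 8 lung markers such as the surfactant gene Sftpc lay between 11.6 and 12.1 on the log2 scale in lung and at or below 6.26 in brain and eye. The mean of 8 brain markers lay between 10.2 and 10.8 in brain, and that of 7 measured eye markers between 11.6 and 12.2 in eye. The 3 tissues were normalized separately, so levels are not compared between tissues. The number of arrays limits the precision.

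The 250 bases before the start sites of the genes the results turn on are shown first, from RefSeq (GRCm38.p6), which held such a window for 28 of the 34 genes. Dusp1, Gadd45b and Gadd45g are shown because they were the genes that passed the test in lung, and Fos because it is the standard member of the class. The windows are chr17:26508473-26508722 on the minus strand for Dusp1, chr10:80929841-80930090 on the plus strand for Gadd45b, chr13:51846425-51846674 on the plus strand for Gadd45g, and chr12:85473640-85473889 on the plus strand for Fos. Capitals mark exact matches, on either strand, to TGACGTCA (the full CREB element), TGACG (its core) and the core promoter letters TATAAA.
Dusp1: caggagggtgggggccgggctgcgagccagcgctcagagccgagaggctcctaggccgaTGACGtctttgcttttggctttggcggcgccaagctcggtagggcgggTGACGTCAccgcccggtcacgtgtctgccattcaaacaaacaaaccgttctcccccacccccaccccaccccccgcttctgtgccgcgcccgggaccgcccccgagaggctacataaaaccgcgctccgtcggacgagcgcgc
Gadd45b: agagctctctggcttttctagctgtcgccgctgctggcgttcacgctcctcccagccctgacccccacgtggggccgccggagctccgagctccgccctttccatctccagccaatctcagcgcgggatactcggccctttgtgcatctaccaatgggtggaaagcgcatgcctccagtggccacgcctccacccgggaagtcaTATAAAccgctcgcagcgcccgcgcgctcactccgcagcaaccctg
Gadd45g: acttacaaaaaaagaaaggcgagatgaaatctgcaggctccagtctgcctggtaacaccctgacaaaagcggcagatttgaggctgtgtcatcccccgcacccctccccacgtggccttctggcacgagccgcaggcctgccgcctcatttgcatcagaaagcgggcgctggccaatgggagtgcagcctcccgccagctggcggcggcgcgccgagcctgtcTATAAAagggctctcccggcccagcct
Fos: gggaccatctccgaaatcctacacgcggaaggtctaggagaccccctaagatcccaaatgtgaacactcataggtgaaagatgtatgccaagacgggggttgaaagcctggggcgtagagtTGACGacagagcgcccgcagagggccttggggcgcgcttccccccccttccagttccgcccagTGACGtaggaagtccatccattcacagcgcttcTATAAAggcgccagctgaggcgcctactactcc
The Dusp1 window holds TGACGTCA, which contains TGACG on both strands, and 1 further TGACG. The windows of Gadd45b and Gadd45g hold TATAAA and none of the CREB letters, and that of Fos holds TATAAA and TGACG at 2 places.

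Over the 28 genes with a window, TGACGTCA was found in 3 (Btg2, Dusp1 and Maff), against 1.77% of 27025 genes in the table. The SRF site, known as the CArG box, was found in 3 (Dusp5, Egr2 and Zfp36; 1.62% of genes), and the AP-1 letters TGANTCA in 1 (Csrnp1; 7.82%). TGACG was found in 18 genes (19.8% of all genes) and TATAAA in 4, namely Fos, Gadd45b, Gadd45g and Nr4a2 (14.3%). TGACG overlaps every TGACGTCA, and TGACG and TATAAA were added to the search after the first matches had been seen. A match describes letters and no binding was measured. Bases farther upstream were not searched. A missing match, as for Fos and the CArG box, therefore does not show that a gene lacks the site. Arc, Egr1, Egr3, Fosl1, Ier2 and Klf10 had no window in the table.

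In lung 3 of the 34 genes rose after hypoxia, 0 fell and 31 did not pass the test. The genes that rose were Dusp1, the phosphatase that switches off p38, JNK and ERK kinases, and Gadd45b and Gadd45g, related stress proteins that bind the kinase MEKK4 and take part in growth arrest. The comparison set the mean of the 4 hypoxia groups (41 arrays) against the mean of the 2 normoxia groups (19 arrays) by limma, and a gene was called at a Benjamini-Hochberg adjusted p under 0.05 over all genes. The same rule called 1.66% of all genes, 1.05% higher and 0.607% lower. At an unadjusted p under 0.05 the members numbered 9, all higher, against 9.0% of all genes (5.54% higher and 3.46% lower). Of the 34 genes 25 had a positive difference, with a median of 0.06 on the log2 scale, and the median over all genes was 0.01.

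**Figure D1:**
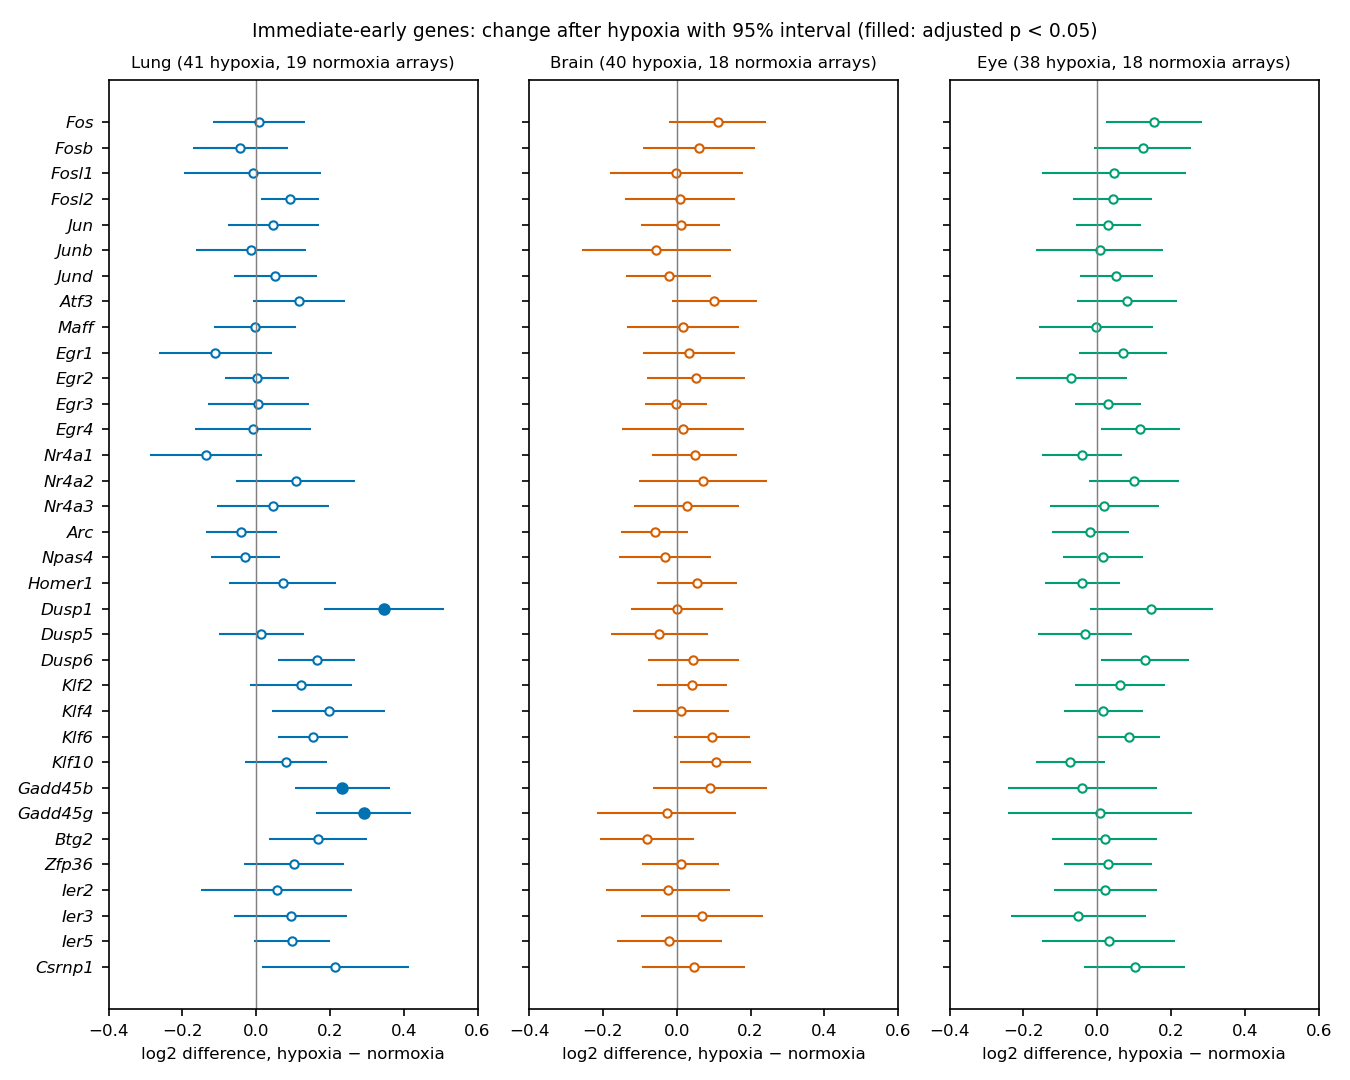
Log2 difference between all hypoxia and all normoxia arrays for each of the 34 genes in lung, brain and eye, with points at the estimate, lines for the 95% interval and filled points for an adjusted p under 0.05. The filled points are Dusp1, Gadd45b and Gadd45g in lung (0.35, 0.23 and 0.29), and brain and eye have none.

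Dusp1 in lung ran from 9.60 to 10.3 on the log2 scale in the 19 normoxia arrays (median 9.81) and from 9.61 to 11.1 in the 41 hypoxia arrays (median 10.2). Its increase was 0.35 ± 0.08 (SE; adjusted p = 0.0095, limma), a fold of 1.27 with a 95% interval of 1.14 to 1.42, and 35 of 41 hypoxia arrays lay above the normoxia mean. The ranges overlapped, with 12 hypoxia arrays above the highest normoxia array. By group the lowest, median and highest values were 9.60, 9.81 and 10.1 in N21, and 9.70, 9.82 and 10.3 in N100. They were 9.82, 10.0 and 10.9 in H21, and 9.61, 10.2 and 10.5 in H40. In H60 they were 9.80, 10.2 and 11.1, and in H100 9.79, 10.3 and 10.5. The medians of all 4 hypoxia groups lay above both normoxia medians, and each hypoxia group also had arrays within the normoxia range.

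Gadd45g in lung ran from 7.43 to 8.18 in normoxia (median 7.93) and from 7.50 to 8.64 after hypoxia (median 8.17). It rose by 0.29 ± 0.06 (SE; adjusted p = 0.0049, limma), a fold of 1.22 (95% interval 1.12 to 1.34), and 37 of 41 hypoxia arrays lay above the normoxia mean. Of those 41 arrays 20 lay above the highest normoxia array, the most of the 3 genes. By group the lowest, median and highest values were 7.43, 7.93 and 8.18 in N21, 7.48, 7.88 and 8.10 in N100, and 8.01, 8.19 and 8.64 in H21. In H40 they were 7.82, 8.17 and 8.33, in H60 7.72, 8.09 and 8.50, and in H100 7.50, 8.30 and 8.57. The lowest hypoxia value belonged to an H100 array, although that group had the highest median.

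Gadd45b in lung ran from 8.89 to 9.74 in normoxia (median 9.40) and from 9.06 to 10.1 after hypoxia (median 9.62). It rose by 0.23 ± 0.06 (SE; adjusted p = 0.038, limma), a fold of 1.18 (95% interval 1.08 to 1.29), in 35 of 41 hypoxia arrays above the normoxia mean. The overlap was wide, with 16 hypoxia arrays above the highest normoxia array. By group the lowest, median and highest values were 9.01, 9.40 and 9.74 in N21, 8.89, 9.41 and 9.74 in N100, and 9.25, 9.68 and 9.87 in H21. In H40 they were 9.38, 9.61 and 9.89, in H60 9.14, 9.54 and 9.99, and in H100 9.06, 9.74 and 10.1. When each array was left out in turn, Dusp1 and Gadd45g were called in 60 of 60 fits and Gadd45b in 43 of 60.

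The 3 genes were often high in the same lungs. All 3 lay above their normoxia mean in 30 of 41 hypoxia arrays and in 3 of 19 normoxia arrays, and none of the 3 did in 0 hypoxia and 6 normoxia arrays. These counts restate the changes of the 3 genes together and are no separate evidence.

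**Figure D2:**
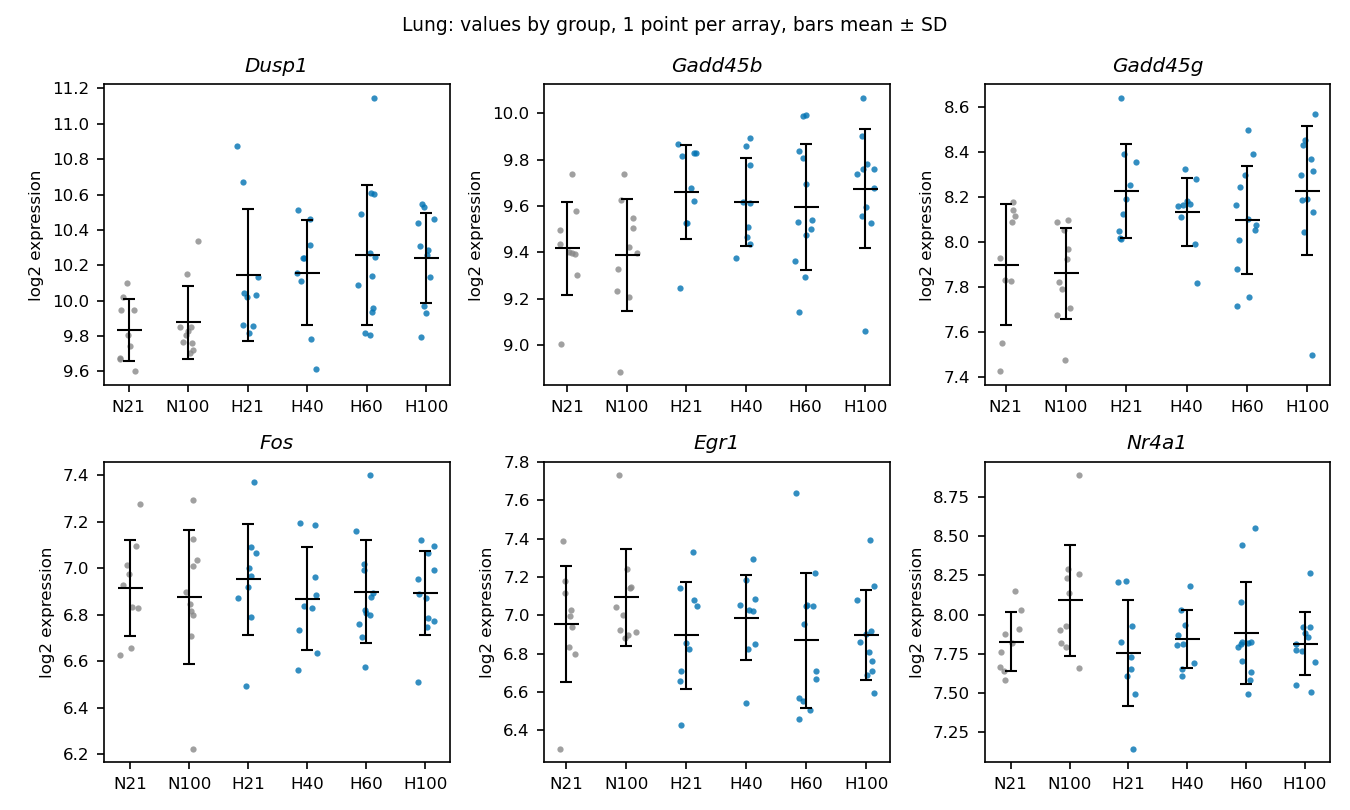
Log2 expression of 6 immediate-early genes in lung by group, with 1 point per array, grey for normoxia and blue for hypoxia, and bars for the mean ± SD. Dusp1, Gadd45b and Gadd45g sit higher in the 4 hypoxia groups with overlapping ranges, while Fos, Egr1 and Nr4a1 show no such shift (0.01, -0.11 and -0.14).

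The other feedback genes did not pass. Dusp6, the phosphatase for ERK, had a difference of 0.16 ± 0.05 (SE; adjusted p = 0.10) and Dusp5, which acts on ERK in the nucleus, 0.01 ± 0.06. Btg2, which slows cell division and promotes RNA decay, was at 0.17 ± 0.07 (adjusted p = 0.30), and Zfp36 at 0.10 ± 0.07. The 4 Klf zinc finger factors all had positive differences, from 0.08 to 0.20, and 0 of them was called. Klf6 had the smallest adjusted p among them (0.15 ± 0.05, adjusted p = 0.088).

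The transcription factors usually taken as markers of the class were not called in lung. The 9 AP-1 genes, whose proteins pair into the AP-1 factor or its relatives, lay between -0.04 and 0.12 with a median of 0.01. Fos, its best known subunit, had medians of 6.93 in N21, 6.87 in N100, 6.97 in H21, 6.84 in H40, 6.85 in H60 and 6.89 in H100. All 60 Fos values lay between 6.22 and 7.40 and the ranges of all groups overlapped, with a difference of 0.01 ± 0.06 (95% interval -0.12 to 0.13). Junb ran from 5.88 to 7.04 in the normoxia groups and from 5.83 to 7.23 in the hypoxia groups, with a difference of -0.01 ± 0.07. Intervals of Fos and Junb (-0.16 to 0.14) do not reach the estimate of Dusp1.

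The 4 Egr zinc finger factors lay between -0.11 and 0.01 in lung. Egr1 had a median of 7.02 in N100, 6.86 in H21, 7.03 in H40, 6.83 in H60 and 6.86 in H100, and a mean of 6.95 in N21. It ran from 6.30 to 7.73 in normoxia and from 6.43 to 7.64 after hypoxia, and its difference was -0.11 ± 0.08 (adjusted p = 0.82). Among the Nr4a orphan nuclear receptors, Nr4a1 ran from 7.58 to 8.15 in N21 and from 7.66 to 8.89 in N100, and from 7.15 to 8.55 over the hypoxia groups. Its difference was -0.14 ± 0.08 (adjusted p = 0.67), and Nr4a2 and Nr4a3 were at 0.11 ± 0.08 and 0.05 ± 0.08. Csrnp1, a nuclear protein induced by axin, was at 0.22 ± 0.10 (adjusted p = 0.47), and the 3 Ier genes lay between 0.06 and 0.10.

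Arc and Npas4 had low values in lung, and whether these lie above background was not tested. Arc ran from 5.79 to 6.41 over all 60 lungs and Npas4 from 4.88 to 5.68, and their differences were -0.04 ± 0.05 and -0.03 ± 0.05. Neither gene separated hypoxia from normoxia arrays in any group. Homer1 had values from 6.27 to 7.06 in normoxia lungs and from 5.87 to 7.53 after hypoxia, a difference of 0.07 ± 0.07.

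The 3 lung genes showed no common order with the oxygen given for 30 min after hypoxia, and no trend was tested. Dusp1 exceeded N21 by 0.31 in H21, 0.33 in H40, 0.43 in H60 and 0.41 in H100, with adjusted p from 0.78 to 1.0. Gadd45g exceeded it by 0.33, 0.23, 0.20 and 0.33 in the same order, and Gadd45b by 0.24, 0.20, 0.18 and 0.26. These comparisons share the N21 arrays. The difference between H100 and H21 was 0.10 for Dusp1 (95% interval -0.17 to 0.36), 0.01 for Gadd45b (-0.19 to 0.22) and 0.00 for Gadd45g (-0.21 to 0.21).

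No single-group comparison in lung called a member. Against N21, limma called 0 of 34 in H21 (0.0502% of all genes), in H40 (0.00502%), in H60 (0.0%), in H100 (0.0201%) and in N100 (0.0%). For H100 minus N100, where both groups had 100% oxygen, it called 0 of 34 (0.105%), and for H100 minus H21 0 of 34 (0.0%). At an unadjusted p under 0.05 the members numbered 4, 3, 3, 5 and 2 against N21 in the same order, beside 5.49, 4.67, 3.49, 3.39 and 1.65% of all genes. They numbered 7 for H100 minus N100 (5.96%) and 0 for H100 minus H21 (1.53%). With 100% oxygen and no hypoxia (N100 minus N21), Dusp1, Gadd45b and Gadd45g were at 0.04, -0.03 and -0.04. For H100 minus N100 they were at 0.36 ± 0.13, 0.28 ± 0.10 and 0.37 ± 0.10, with adjusted p of 0.43, 0.46 and 0.17 (limma). The groups were not spread evenly over the runs of sample records described below.

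Lists of related genes were read in the same lungs beside the 1.66% of all genes called there. Of 20 other early response genes 2 rose. Sgk1, a kinase induced by glucocorticoids and serum, rose by 0.48 ± 0.08 (adjusted p = 0.00017, 39 of 41 hypoxia arrays above the normoxia mean), and the matrix protein Ccn2 rose by 0.31 ± 0.08 (adjusted p = 0.019, 36 of 41). The other 18 did not pass, and the median of the 20 was 0.07. Of the genes upstream, 0 of 18 transcription factors and 0 of 13 measured MAP kinase pathway genes were called, with medians of -0.02 and 0.00. Their largest differences were Crtc3 at 0.10 and Elk3 at -0.09, and Map2k3 at 0.17 and Mapk8 at -0.11. Of 14 further feedback inhibitors 0 were called (Spred2 -0.20, Spry2 -0.14), and of 12 later activity genes 0 (Crh 0.10, Nptx1 -0.09). Of 9 measured heat shock genes 0 were called, with a median of 0.14 and the largest values at Hspb1 (0.41) and Hspa1a (0.32).

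Markers of other cells were read in these lungs too. All 7 neutrophil genes had positive differences, with a median of 0.47, and 1 of them, the neutrophil collagenase Mmp8, rose (0.91 ± 0.15, adjusted p = 0.00013). The mean of the 7 ran from 5.56 to 7.34 in normoxia and from 5.92 to 7.75 after hypoxia. All 4 brown fat genes had negative differences (median -0.41, 0 called), and their mean ran from 5.31 to 8.25 in normoxia and from 4.97 to 9.05 after hypoxia. Of 8 brain markers 1 rose in lung, the neuronal gene Stmn2 (0.30 ± 0.07, adjusted p = 0.0072), with the mean of the 8 between 5.21 and 5.56 in normoxia and between 5.21 and 5.77 after hypoxia. None of 6 endothelial, 6 muscle or 8 lung markers was called. The muscle genes had differences of the same sign in single groups, with 0 called. All 6 were higher than N21 in H21 and H40 (medians 0.56 and 0.66) and lower in H60 and H100 (medians -0.21 and -0.19). Their median for H100 minus H21 was -0.75. Their mean ran from 5.92 to 10.2 in normoxia (median 6.37) and from 5.98 to 9.51 after hypoxia (median 6.30). The part of these cells in the result for Dusp1, Gadd45b and Gadd45g was not tested, and in whole tissue more cells of a type and more RNA per cell cannot be told apart.

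In brain 0 of the 34 genes were called after hypoxia (40 hypoxia against 18 normoxia arrays, limma; 0.0853% of all genes). At an unadjusted p under 0.05 there was 1 member, the zinc finger factor Klf10 (0.11 ± 0.05), against 3.18% of all genes. Of the 34 genes 23 had a positive difference, with a median of 0.02, and the widest 95% intervals over the members reached from -0.26 to 0.25. Dusp1 ran from 7.61 to 8.38 in normoxia (median 8.07) and from 7.23 to 8.44 after hypoxia (median 8.17), a difference of 0.00 ± 0.06. Gadd45b was at 0.09 ± 0.08 and Gadd45g at -0.03 ± 0.09, and their hypoxia and normoxia ranges overlapped.

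The classical activity genes showed the same in brain. Fos ran from 5.97 to 7.19 in N21 (median 6.43) and from 6.19 to 6.65 in N100 (median 6.34). After hypoxia its medians were 6.53, 6.50, 6.49 and 6.45 in H21, H40, H60 and H100, within a range of 5.79 to 6.93. Its difference was 0.11 ± 0.07 (adjusted p = 1.0), with 29 of 40 hypoxia arrays above the normoxia mean. Arc, which encodes a synaptic protein, had medians of 6.94 and 7.02 in N21 and N100 and of 6.90, 6.90, 6.85 and 6.92 in H21 to H100, a difference of -0.06 ± 0.05. Npas4, a factor of active neurons, had medians of 5.62 in both normoxia groups and of 5.65, 5.68, 5.50 and 5.70 after hypoxia (-0.03 ± 0.06). Homer1, a synaptic scaffold gene, was at 0.05 ± 0.05, and its 1 probe set did not tell transcript forms apart.

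Egr1 in brain ran from 6.52 to 7.16 in normoxia and from 6.38 to 7.29 after hypoxia, a difference of 0.03 ± 0.06. Nr4a1 was at 0.05 ± 0.06 and Junb at -0.06 ± 0.10. Against N21, brain had 0 of 34 members called in H21, H40, H60, H100 and N100 (0.0% of all genes in each), 0 for H100 minus N100 (0.01%) and 0 for H100 minus H21 (0.0%). At an unadjusted p under 0.05 there were 0, 0, 1, 1 and 1 against N21 in that order, 0 for H100 minus N100 and 2 for H100 minus H21, beside 1.33, 1.76, 3.22, 3.47, 4.04, 4.55 and 4.64% of all genes. The last held Dusp1, at 0.27 ± 0.10 (adjusted p = 0.89): its values had medians of 7.84 in H21 and 8.14 in H100.

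In eye 0 of the 34 genes were called after hypoxia (38 against 18 arrays, limma; 0.0853% of all genes). At an unadjusted p under 0.05 there were 3, against 5.02% of all genes: Fos (0.15 ± 0.06, adjusted p = 0.85), Egr4 (0.12 ± 0.05) and Dusp6 (0.13 ± 0.06). Of the 34 genes 25 had a positive difference, with a median of 0.03, and the widest 95% intervals reached from -0.24 to 0.31. Fos had medians of 6.41 in N21 and 6.61 in N100, and of 6.65, 6.69, 6.65 and 6.69 in H21 to H100. Its values ran from 6.13 to 6.77 in normoxia and from 5.97 to 7.10 after hypoxia, with 30 of 38 hypoxia arrays above the normoxia mean.

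Dusp1 in eye had medians of 8.62 in N21, 8.86 in N100, 8.78 in H21, 8.93 in H40, 9.10 in H60 and 8.96 in H100. Its difference was 0.15 ± 0.08 (adjusted p = 1.0). Against N21 alone it was at 0.42 ± 0.14 in H60 and 0.35 ± 0.13 in H100, but also at 0.22 ± 0.14 in N100, which had no hypoxia. Gadd45b and Gadd45g were at -0.04 ± 0.10 and 0.01 ± 0.12, and their spread in eye was large: Gadd45g ran from 7.37 to 9.43 in normoxia and from 7.12 to 9.23 after hypoxia.

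Egr1 in eye was at 0.07 ± 0.06, with values from 6.58 to 7.47 in normoxia and from 6.61 to 7.68 after hypoxia. Arc (-0.02 ± 0.05), Npas4 (0.02 ± 0.05), Nr4a1 (-0.04 ± 0.05) and Junb (0.01 ± 0.09) had hypoxia and normoxia values in overlapping ranges. The number called was 0 of 34 against N21 in H21 (0.00502% of all genes) and in H40, H60, H100 and N100 (0.0% in each). It was also 0 for H100 minus N100 and for H100 minus H21 (0.0% in each). At an unadjusted p under 0.05 there were 1, 1, 3, 4 and 0 against N21, 1 for H100 minus N100 and 2 for H100 minus H21, beside 2.25, 2.11, 5.4, 5.31, 3.9, 8.7 and 4.27% of all genes. Klf10 was among them for H100 minus N21 (-0.22 ± 0.07), H100 minus N100 (-0.17 ± 0.07) and H100 minus H21 (-0.18 ± 0.07), which share the H100 arrays. The other member for H100 minus H21 was Dusp1, at 0.27.

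**Figure D3:**
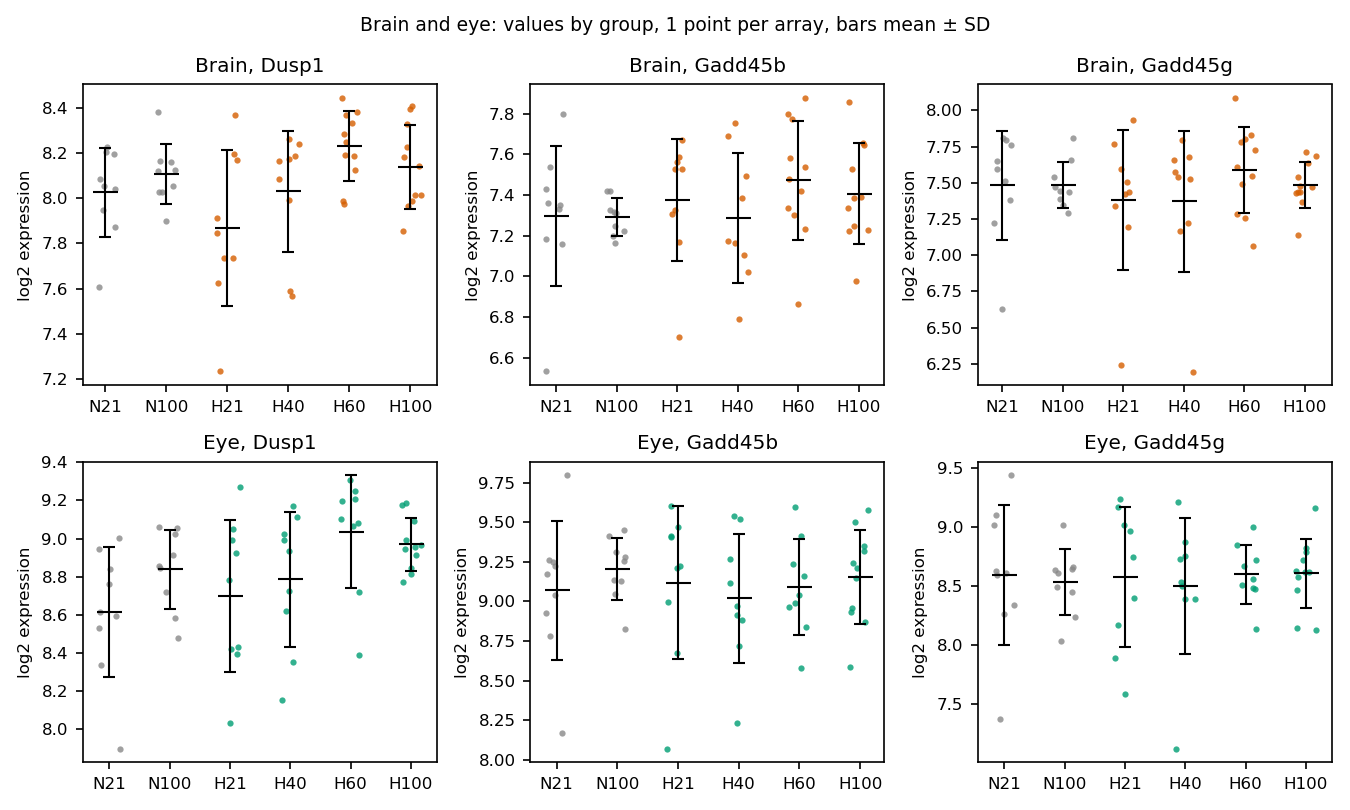
Log2 expression of Dusp1, Gadd45b and Gadd45g in brain (upper row) and eye (lower row) by group, with 1 point per array, grey for normoxia, and bars for the mean ± SD. The groups overlap in every panel, and eye Gadd45g spans 7.12 to 9.43.

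A difference between tissues was not shown. In 1 fit over the 174 arrays, the hypoxia change differed between lung and brain for 0 of 34 genes (0.451% of all genes), between lung and eye for 0 (0.396%) and between brain and eye for 0 (0.01%). Dusp1 changed by 0.35 ± 0.11 more in lung than in brain (95% interval 0.13 to 0.56, adjusted p = 0.20, limma) and by 0.20 ± 0.11 more than in eye (-0.02 to 0.41). Gadd45g changed by 0.32 ± 0.14 more in lung than in brain (adjusted p = 0.71) and by 0.29 ± 0.14 more than in eye. For Gadd45b the differences were 0.14 ± 0.12 and 0.27 ± 0.12. That the 3 genes passed in lung and not in the other tissues is therefore no tested difference between tissues. The design text gives 62 mice for the 177 arrays, so most mice must have given more than 1 tissue. Titles repeat the group and replicate number across tissues, but the labels do not say that these mark 1 mouse. Of 54 such numbers with an array of every tissue, 45 had the same sex in all 3, read from Xist and Y-linked genes. The fit above has no term for shared mice. With arrays of 1 group and number as a block (correlation 0.16), 0 of 34 genes were called in each of the 3 tissue differences, and Dusp1 in lung minus brain was at 0.34 (adjusted p = 0.073, limma).

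The order of the sample records marks a larger division than the treatment. The records form a first run sorted by group and later runs, which the labels do not state. Groups were spread unevenly over the runs. In lung the first run held 8 of 10 N100 arrays and 5 of 9 N21 arrays. In brain and in eye it held 8 of 9 N100 arrays and 5 of 9 N21 arrays. The main fits have no term for the run, so their comparisons with N100 are partly comparisons of runs. Between later and first runs 56.5% of all genes differed in lung (14 of the 34 members, 9 higher and 5 lower in the later runs), 44.8% in brain (16 members, 4 and 12) and 38.7% in eye (15 members, 4 and 11). In lung Ier2 was higher in the later runs by 0.61 and Csrnp1 by 0.55, and Nr4a3 differed by -0.44. In brain Junb differed by -0.50, and in eye Fosl1 by -0.66.

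Dusp1, Gadd45b and Gadd45g were not among the lung genes that differed between runs. With the run as a block they changed by 0.35, 0.24 and 0.30 in lung, with adjusted p of 0.0058, 0.013 and 0.0018, and Btg2 and Klf6 were called as well. Within the first run (38 arrays) the 3 genes were at 0.42, 0.17 and 0.21, with adjusted p of 0.12, 0.64 and 0.49. Within the later runs (22 arrays) they were at 0.27, 0.34 and 0.42, with adjusted p of 0.64, 0.47 and 0.13. The direction was the same on both sides, and 0 members were called in either. The 3 genes were chosen because they passed over the lung arrays of both sides, so the shared direction is no separate evidence.

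Between animals of a group, members differed in spread. In lung the residual SD ran from 0.13 (Fosl2) to 0.38 (Ier2) on the log2 scale, beside a median of 0.22 over all genes, and it was 0.30 for Dusp1 and 0.23 for both Gadd45b and Gadd45g. In brain it ran from 0.13 (Egr3) to 0.37 (Junb) and in eye from 0.14 (Klf6) to 0.45 (Gadd45g). The increase of Dusp1 in lung was thus about the size of its SD among animals, and that of Gadd45g somewhat above it.

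Fos was set against each other member after group means were removed, to see which genes vary with it among arrays. Shifts between the runs of records were not removed, and arrays were permuted across runs. The p-values therefore do not separate variation among animals from shifts between runs. This gave 99 relations over the 3 tissues (permutation tests with 100000 resamples, two-sided, Benjamini-Hochberg over all 99). Both Pearson's r and Spearman's rho passed for 2 genes in lung, 5 in brain and 6 in eye, all positive. In lung these were Fosb (r = 0.37, rho = 0.40; adjusted permutation p = 0.028 and 0.020) and Ier3 (r = 0.35, rho = 0.36; 0.038 and 0.035), a gene of cell survival. In brain the strongest was the AP-1 gene Junb (r = 0.47, rho = 0.49; adjusted permutation p = 0.0086 and 0.0069), followed by Gadd45b (0.46), Jund (0.43), Csrnp1 (0.40) and Maff (0.36). In eye it was Egr1 (r = 0.49, rho = 0.56; adjusted permutation p = 0.0086 and 0.0030), followed by Klf4 (0.48), Gadd45b (0.46), Junb (0.42), Dusp6 (0.39) and Fosl2 (0.36).

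Without the 2 arrays farthest from the median of Fos, 6 of the 13 passed, 0 in lung, 3 in brain and 3 in eye. The lung relations then missed the threshold with r = 0.27 for Fosb and 0.33 for Ier3, where the value for Ier3 was close to that over all arrays. Without those arrays r was 0.61 for Egr1 in eye and 0.42 for Junb and 0.40 for Csrnp1 in brain. Within the first run 3 passed, over 37 or 38 arrays, and the later runs hold 5 to 15 arrays each. Fos with Junb in brain was at 0.28 in the first run and 0.17 in the third, and both genes were lower in the later runs there. Gadd45b and Csrnp1 were lower there too (-0.27 and -0.17), with r of 0.48 and 0.42 in the first run and -0.00029 and 0.18 in the third. Jund and Maff in brain did not pass between runs, with r of 0.37 and 0.32 in the first run and 0.097 and 0.36 in the third. Fos with Egr1 in eye was at 0.60 in the first run, 0.41 in the second and 0.23 in the third. The relation of Dusp1 with Fos did not pass in any tissue, with r = 0.29 in lung, -0.065 in brain and 0.26 in eye. Its adjusted permutation p was 0.088, 0.76 and 0.14 for r, and 0.31, 0.61 and 0.25 for rho. Over all 561 pairs of members the median r was 0.09 in lung, 0.11 in brain and 0.15 in eye.

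**Figure D4:**
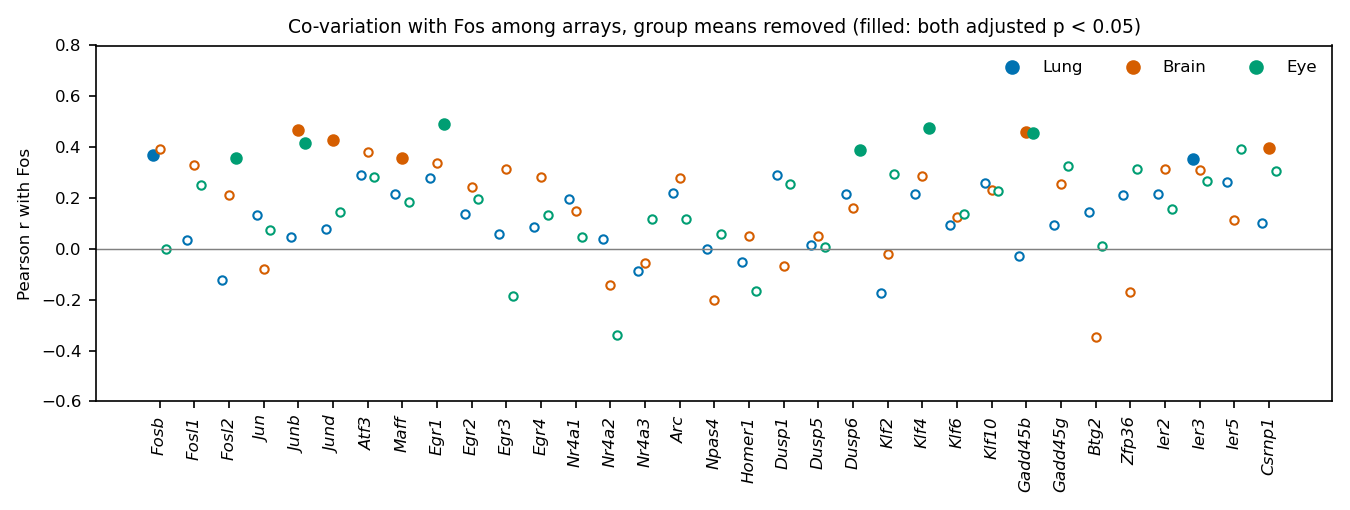
Pearson's r between Fos and each of the other members over the arrays of a tissue with group means removed, for lung, brain and eye, with filled points where r and rho both had an adjusted p under 0.05. The highest values are Egr1 in eye (0.49), Klf4 in eye (0.48) and Junb in brain (0.47).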

How the data were processed

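RNA of whole lung, brain and eye was measured on Affymetrix Mouse Gene 1.0 ST arrays. The authors deposited log2 values made with RMA (version not stated), per the submitters' processing notes. The labels' extraction protocol names a kit for blood, although the design text speaks of stored solid tissue. Probe sets with exactly 1 gene symbol (21640 of 34760; 1321 had several and 11799 none) were used, with symbols updated through Entrez identifiers found in RefSeq for 21553, and the highest mean per gene kept, which left 19937 genes. Medians were 6.25 (lung), 6.07 (brain) and 6.35 (eye).

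Groups and replicate numbers came from the sample titles. Changes were fitted per tissue with limma 3.58.1 in R 4.3.3 (lmFit, eBayes, two-sided) over all 6 groups, with Benjamini-Hochberg adjustment over all genes. There were 8 comparisons in each tissue and 3 tissue differences. Python 3.11.15 and SciPy 1.17.1 served for correlations. A value after ± is the fit's standard error. On simulated data with 200 of 19937 genes changed, the test of all hypoxia against all normoxia called, of 100 changes of 0.25, 56 (lung), 57 (brain) and 60 (eye). Of 100 changes of 0.5 it called 100, 100 and 96. In the measured values of brain and of eye the same test called 17 genes each. The adjustment is stricter where fewer genes pass, and recovery with so few genes called was not tested.

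The members, lists and tests were chosen with earlier results of these data known. Every member may be named. The lowest, median and highest values of every group are given for Dusp1, Gadd45b and Gadd45g in lung. These genes in brain and eye, and Fos, Egr1, Arc, Npas4, Nr4a1 and Junb, are given by group, exposure or tissue, or as a difference. Other members are given by difference, range or count, and of other lists the called genes or else the 2 largest changes. The heat shock, MAP kinase and eye marker lists had genes without a single-gene probe set, which were not used here. Alternatives were inclusion of the 3 arrays with another tissue's profile, array weights, no dim genes (lowest 40%), quantile normalization again, replicate number or record run as a block, 2 pooled groups, sex as a covariate, the mean of probe sets, and each array left out. The fits within the first run and within the later runs were added after seeing the data.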

Additional observations from a re-analysis of the deposited data

Results flagged for a closer look

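Single arrays stood apart in 16 of 117 sets of values tested, each set being 1 gene in 1 group of at most 10 arrays. An array was counted where its gap to the nearest other array was large against the range of the group by Dixon's ratio. Chance gives about 1 in 20 such sets. The 9 genes tested were Dusp1, Gadd45b, Gadd45g, Fos, Egr1, Arc, Npas4, Nr4a1 and Junb, and no cause was tested.

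In lung, Egr1 was highest in N100 replicate 9 at 7.73 on the log2 scale, and Nr4a1 was highest in N100 replicate 7 at 8.89. Junb was highest in N21 replicate 3 (7.04) and in H21 replicate 1 (7.23), and lowest in N100 replicate 6 (5.88).

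In brain, N21 replicate 7 was lowest for both Gadd45b (6.53) and Gadd45g (6.63). Gadd45g was also lowest in H21 replicate 8 (6.24) and H40 replicate 10 (6.20). Fos was lowest in H40 replicate 8 (5.79) and Nr4a1 in H40 replicate 2 (6.76), while Arc was highest in H21 replicate 2 (7.25).

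In eye, H40 replicate 8 was lowest for both Gadd45g (7.12) and Junb (5.36). Egr1 was highest in H40 replicate 7 (7.37), and Junb was lowest in N100 replicate 3 (5.88).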

How the results depend on the processing

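The lung count of 3 members was 1 (Gadd45g) with the 3 arrays of another tissue included, 7 with array weights, 5 with the replicate block, 5 with the run as a block, 0 within the first run and 0 within the later runs, where fewer arrays were fitted. It was 3 with the filter on dim probe sets, quantile normalization again, sex as a covariate and 2 pooled groups, and 2 to 4 when each array was left out. Over all genes 95, 834, 417, 504, 23 and 38 were called in place of 331 under the first 6. The mean of probe sets could not move the values of members, since each has 1. Same-numbered arrays of different groups did not meet the rule for pairing, a correlation over 0.1 in every pair: in lung 77 of 139 pairs were over it, and 12 of 60 arrays correlated best with their own number. Their median correlation was 0.13 in lung, 0.13 in brain and 0.030 in eye, beside -0.017, -0.017 and -0.025 for other pairs. For H100 minus N100 in lung the count was 1 (Gadd45g) with array weights and 0 to 1 when each array was left out, with 1 only without H100 replicate 6. For lung minus brain it was 1 (Dusp1) with array weights. All other counts stayed at 0 under the alternatives run. Of the 13 relations with Fos, 3 passed within the first run, 0 within the third and 6 without the 2 farthest arrays. Within the second run 0 passed in lung and eye, and brain, with 5 arrays there, was not tested. Turned in sign were Fos with Fosb in lung in the second run (-0.57), Fos with Gadd45b in brain in the third (-0.00029) and Fos with Junb in eye in the third (-0.11). The cause was not tested.

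Differences near 0 that were never called changed sign. In lung Fos was -0.010 with the 3 arrays included, -0.0084 after quantile normalization again and -0.11 within the later runs, and Npas4 was 0.0062 with weights. In brain Dusp1 was -0.0034 with the run as a block, -8.4e-05 with sex as a covariate and -0.19 within the later runs. Gadd45g was 0.00093 with the replicate block, 0.0043 with the run as a block and 0.0043 within the later runs. Junb was 0.025 with the run as a block and 0.022 within the first run. Within the later runs brain Egr1 was -0.16, Arc 0.035 and Nr4a1 -0.039. In eye Gadd45g was -0.0069 with the 3 arrays included, -0.011 with the replicate block and -0.28 within the later runs. Within the later runs eye Egr1 was -0.032, Arc 0.012 and Junb -0.026, and within the first run Npas4 was -0.048 and Junb -0.024. With each array left out in turn, lung Fos ran from -0.028 to 0.031 and Junb from -0.049 to 0.023. Brain Dusp1 ran from -0.026 to 0.020 and Gadd45g from -0.081 to 0.0095. In eye Arc ran from -0.032 to 0.00077, Gadd45b from -0.097 to 0.0044, Gadd45g from -0.069 to 0.060, Junb from -0.033 to 0.034 and Npas4 from -0.016 to 0.042.

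The arrays carry no detection calls, so whether low values such as those of Npas4 lie above background was not tested. Changes of 0.25 were called in 56 of 100 simulated lung genes, so smaller changes of members can have been missed. A single late time point cannot show a rise that had passed.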
